A study of Mus musculus with 24 samples.

Results

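The 37 genes described here sense breaks in DNA, signal them or repair them. They were taken from 48795 gene identifiers in each of 2 tables of normalised RNA counts by matching their symbols to Ensembl identifiers, and each matched 1 identifier. By role, 12 act in damage signalling, 9 in homologous recombination, 4 in the Fanconi pathway, 7 in end joining, 4 in base excision repair and 1 in mismatch repair. Lungs came from Balb/c females aged 8 weeks, in 3 groups, and RNA was taken from sorted cells. Depleted mice received 13 Gy to the lungs and a daily antibody against Ly6G, a neutrophil surface protein. Irradiated mice received 13 Gy and a control IgG. Sham mice received 0 Gy and the control IgG. All lungs were taken at day 7. From these lungs, cells gated negative for CD45, CD31 and Ter119 were sorted by EpCAM into an epithelial fraction (positive) and a mesenchymal fraction (negative), although the extraction protocol repeats CD45 in the place that the cell type entries give to CD31. Each fraction had 4 libraries in each group, 24 in all. Each table has its own scale, so levels are compared inside a table. The labels do not tie equal replicate numbers to a litter or a day.

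Ionising radiation breaks both strands of DNA. The MRE11-RAD50-NBS1 complex (Mre11a, Rad50, Nbn) binds the broken ends and recruits the kinase ATM, while ATR with its partner ATRIP is recruited to single-stranded DNA. Both kinases act through the checkpoint kinases CHEK1 and CHEK2, and MDC1, RNF8, RNF168 and 53BP1 assemble on chromatin next to the break. Ends are then rejoined directly by the Ku and DNA-PK machinery, or repaired by homologous recombination from a sister chromatid, which needs a dividing cell. These proteins are largely controlled after translation, by phosphorylation and ubiquitylation, which RNA counts do not measure.

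The promoters of the members are shown because the p53 response is a well known transcriptional answer to DNA breaks, and many recombination genes are known to be transcribed with the cell cycle through E2F factors. RefSeq promoter windows on GRCm38.p6, 300 bases that run from 250 before to 50 after the transcription start, were found for 32 of the 37 members. Fancd2, Nbn, Prkdc, Rad50 and Xrcc2 were not matched. The p53 half-site (searched by its consensus, which reads the same on both strands) occurred in the window of 1 of 32 members, Fanca. It occurred in 5 of 8 matched p53 target genes (Aen, Bax, Ccng1, Cdkn1a and Mdm2) and in 9.55% of 27025 genes. The letters GCGGGAA, a core of the E2F motif searched on both strands, occurred in 14 of 32 members, in 0 of the 8 p53 targets and in 5.29% of all genes. The letters TTTGAA, found in promoters of cell cycle genes and searched on both strands, occurred in 3 of 32 members (Bard1, Rad51b and Rnf8), in 2 of the 8 p53 targets and in 20.2% of all genes. The 14 members with GCGGGAA were Atm, Bard1, Brca2, Chek1, Chek2, Fanci, Mdc1, Msh6, Rad51c, Rad52, Rnf168, Rnf8, Xrcc4 and Xrcc6. The windows of the 5 members that passed the test in at least 1 comparison are printed 5′ to 3′ on the strand of the gene, with GCGGGAA or its reverse complement in capitals.
Atr, chr9:95857347-95857646, plus strand: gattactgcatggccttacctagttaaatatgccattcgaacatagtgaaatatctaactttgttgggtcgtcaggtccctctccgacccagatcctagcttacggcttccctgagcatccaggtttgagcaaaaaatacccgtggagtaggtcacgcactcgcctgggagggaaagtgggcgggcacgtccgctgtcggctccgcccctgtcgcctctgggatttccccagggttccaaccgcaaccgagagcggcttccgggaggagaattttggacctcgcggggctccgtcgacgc
Fancc, chr13:63431696-63431995, minus strand: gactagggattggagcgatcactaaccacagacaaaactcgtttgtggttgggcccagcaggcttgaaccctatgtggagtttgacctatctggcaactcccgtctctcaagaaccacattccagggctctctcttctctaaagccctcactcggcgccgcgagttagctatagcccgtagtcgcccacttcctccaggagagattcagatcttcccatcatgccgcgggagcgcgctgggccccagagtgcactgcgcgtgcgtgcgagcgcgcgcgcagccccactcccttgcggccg
Fanci, chr7:79392088-79392387, plus strand: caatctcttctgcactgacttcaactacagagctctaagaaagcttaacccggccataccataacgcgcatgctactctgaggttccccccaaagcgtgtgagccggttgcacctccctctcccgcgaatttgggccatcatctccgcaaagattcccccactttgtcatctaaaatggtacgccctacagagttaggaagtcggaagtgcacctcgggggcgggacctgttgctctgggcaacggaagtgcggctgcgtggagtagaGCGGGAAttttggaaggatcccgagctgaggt
Mdc1, chr17:35841248-35841547, plus strand: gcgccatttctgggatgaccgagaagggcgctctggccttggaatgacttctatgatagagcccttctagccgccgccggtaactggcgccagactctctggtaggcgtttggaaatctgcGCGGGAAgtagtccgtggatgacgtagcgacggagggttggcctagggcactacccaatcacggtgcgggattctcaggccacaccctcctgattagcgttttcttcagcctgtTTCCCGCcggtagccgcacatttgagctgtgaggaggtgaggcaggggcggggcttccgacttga
Rnf8, chr17:29614539-29614838, plus strand: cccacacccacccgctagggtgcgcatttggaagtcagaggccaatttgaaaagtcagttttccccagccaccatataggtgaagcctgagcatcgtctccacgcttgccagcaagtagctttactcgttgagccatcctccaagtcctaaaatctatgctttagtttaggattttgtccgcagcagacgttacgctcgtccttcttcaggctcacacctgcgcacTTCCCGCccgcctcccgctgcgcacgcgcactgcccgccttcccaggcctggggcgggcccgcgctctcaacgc
The windows of Atr and Fancc held none of the 3 motifs. The RefSeq starts used for Fancc and Fanci lie inside their GENCODE genes. The motif of Fanci lay from base 19 to base 25 after the start, that of Rnf8 from base -24 to base -18, and Mdc1 held 2, from -129 to -123 and from -15 to -9. A match in a window describes its letters and is no evidence that a factor binds there.

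In sham lungs the members spread over a wide range of levels (plot of levels per length), given here as normalised count per kb of exon, with the range over 4 libraries in brackets. In sham epithelium the highest were Xrcc5 (Ku80), at 112 (105 to 123), the mismatch recognition gene Msh6, at 101 (98.4 to 108), and Nbn, at 89.6 (80.4 to 99.8). In sham mesenchyme they were Rad50, at 99.6 (91.4 to 106), Fancc, at 92.5 (85.8 to 95.5), and Nbn, at 70.6 (66.97 to 74.5). The low end of both orders was held by recombination and Fanconi genes, although Fancc, Xrcc3, at 48.5 (43.5 to 55.8), and Rad52, at 35.2 (32.2 to 37.8), stood in the upper part of the mesenchymal order. The lowest in sham epithelium were Fanca, at 1.48 (0.475 to 2.66), and the recombination scaffold Brca1, at 2.30 (1.24 to 3.24). In sham mesenchyme Fanca stood at 0.134 (0.0944 to 0.232) and Brca1 at 0.916 (0.238 to 1.77). Neighbours in this order mostly overlapped. The library ranges were apart in 6 of 36 neighbouring pairs in epithelium and in 4 of 36 in mesenchyme. The median member had 20.5 per kb in sham epithelium and 17.3 per kb in sham mesenchyme, against 37.2 and 35.0 per kb for all tested genes of those tables.

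**Figure D1:**
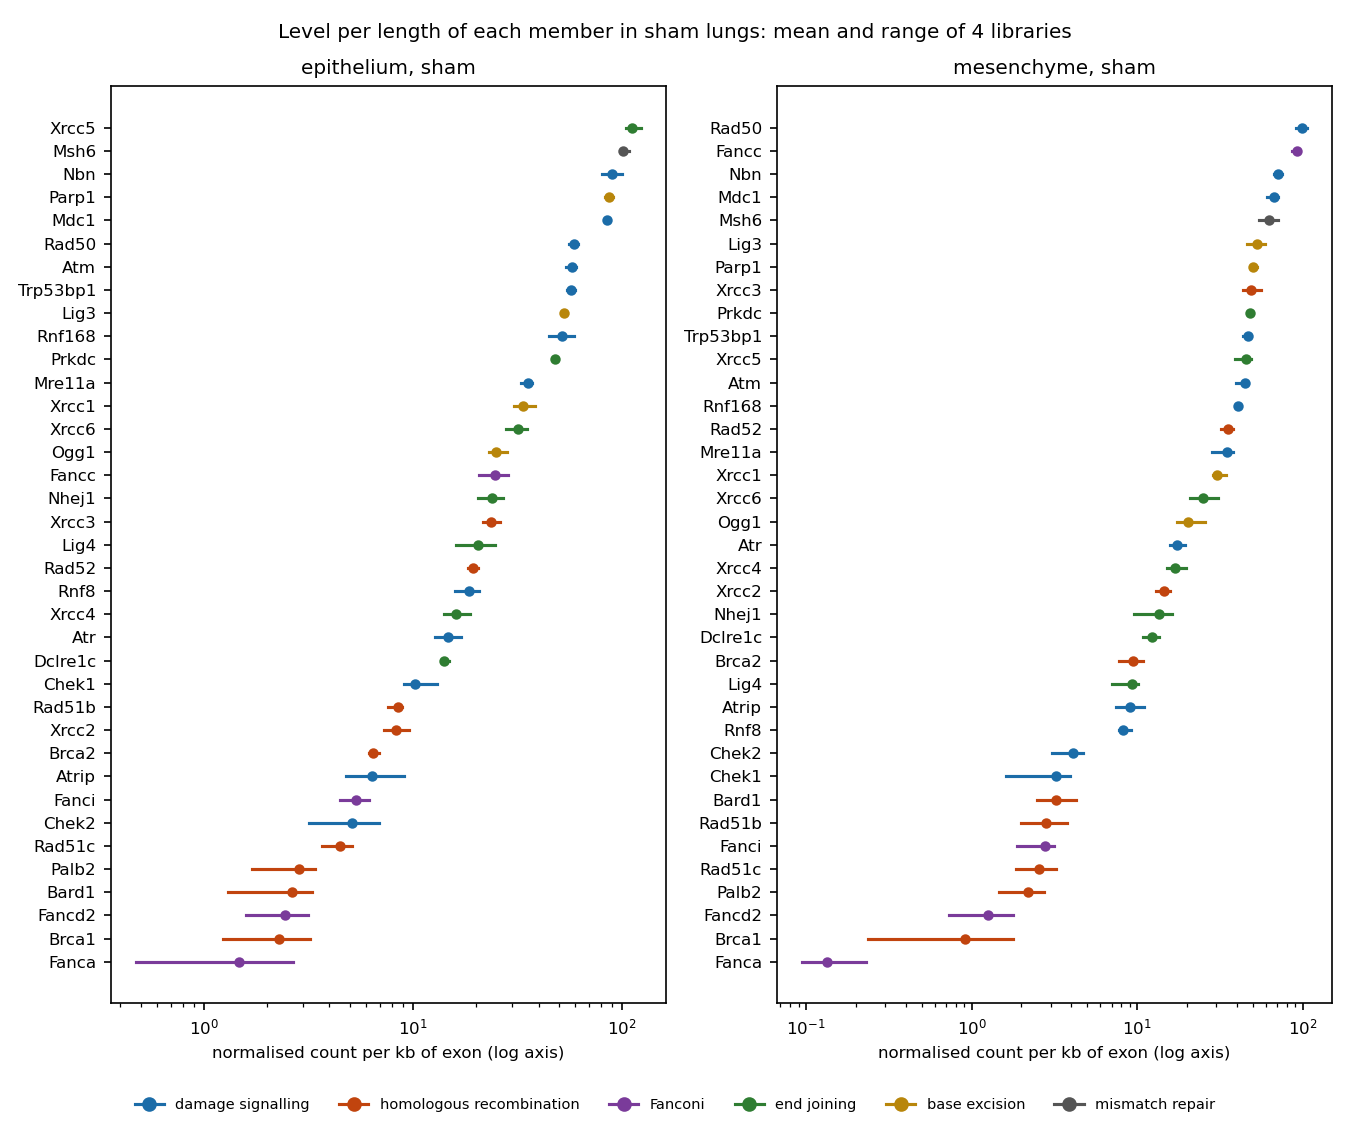
Level of each of the 37 members in sham epithelium (left) and sham mesenchyme (right), as normalised count per kb of exon on a log axis; points are means and lines the range of 4 libraries, coloured by role. Xrcc5 leads the epithelial order and Rad50 the mesenchymal one, and Fanca and Brca1 are the 2 lowest in both.

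Irradiated against sham lungs asks what the dose left in these cells after 7 days. In epithelium no member passed the test: 0 of 37 were called at an adjusted p under 0.05, by limma across all genes, where 522 of 16626 genes (3.14%) were called. In mesenchyme 1 of 36 tested members was called, the kinase gene Atr, which was lower after irradiation, against 631 of 16624 genes (3.8%). In these pooled cells, fewer cells of a type and less RNA per cell cannot be told apart. At an unadjusted p under 0.05 there were 1 member in epithelium (2385 genes, 14.3%) and 4 in mesenchyme (3491 genes, 21%). Among the alternative tools, edgeR and DESeq2 on recovered reads also called 0 members in epithelium. Fanca was not tested in mesenchyme, where its normalised count was at most 7.22 in any library. In sham it was at most 2.03, under the 2.48 to 3.66 that a count of 0 allows. It had 7.22, 4.55, 3.05 and 6.10 in irradiated and 2.03, 0.827, 1.01 and 0.832 in sham mesenchyme. In depleted mesenchyme it had 2.05, 4.50, 3.87 and 3.02. Irradiated replicate 3, at 3.05, stood at the value that a count of 0 allows in that library. A separation of irradiated from sham libraries is therefore not established. With no filter on low genes Fanca was tested, and 0 of 37 members were called in this comparison.

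The median log2 change of the members was -0.068 (irradiated over sham) in epithelium and -0.02 in mesenchyme, against -0.0071 and -0.0075 for all tested genes. Lower estimates were more frequent in epithelium, 27 of 37, and about even in mesenchyme, 19 of 36. The share of lower estimates among all genes was not counted, so these counts do not show a joint fall. Failing the test does not by itself show an unchanged level, so the 95% interval of each change was set against a 1.5-fold change. In epithelium the interval lay inside 1.5-fold either way for 25 of 37 members, against 65.7% of all tested genes. In mesenchyme it did so for 23 of 36 members, against 58.8%. Both shares are near those of all genes. The other intervals were wider and mostly belonged to low members such as Brca1, Palb2, Bard1, Chek2 and Fancd2.

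**Figure D2:**
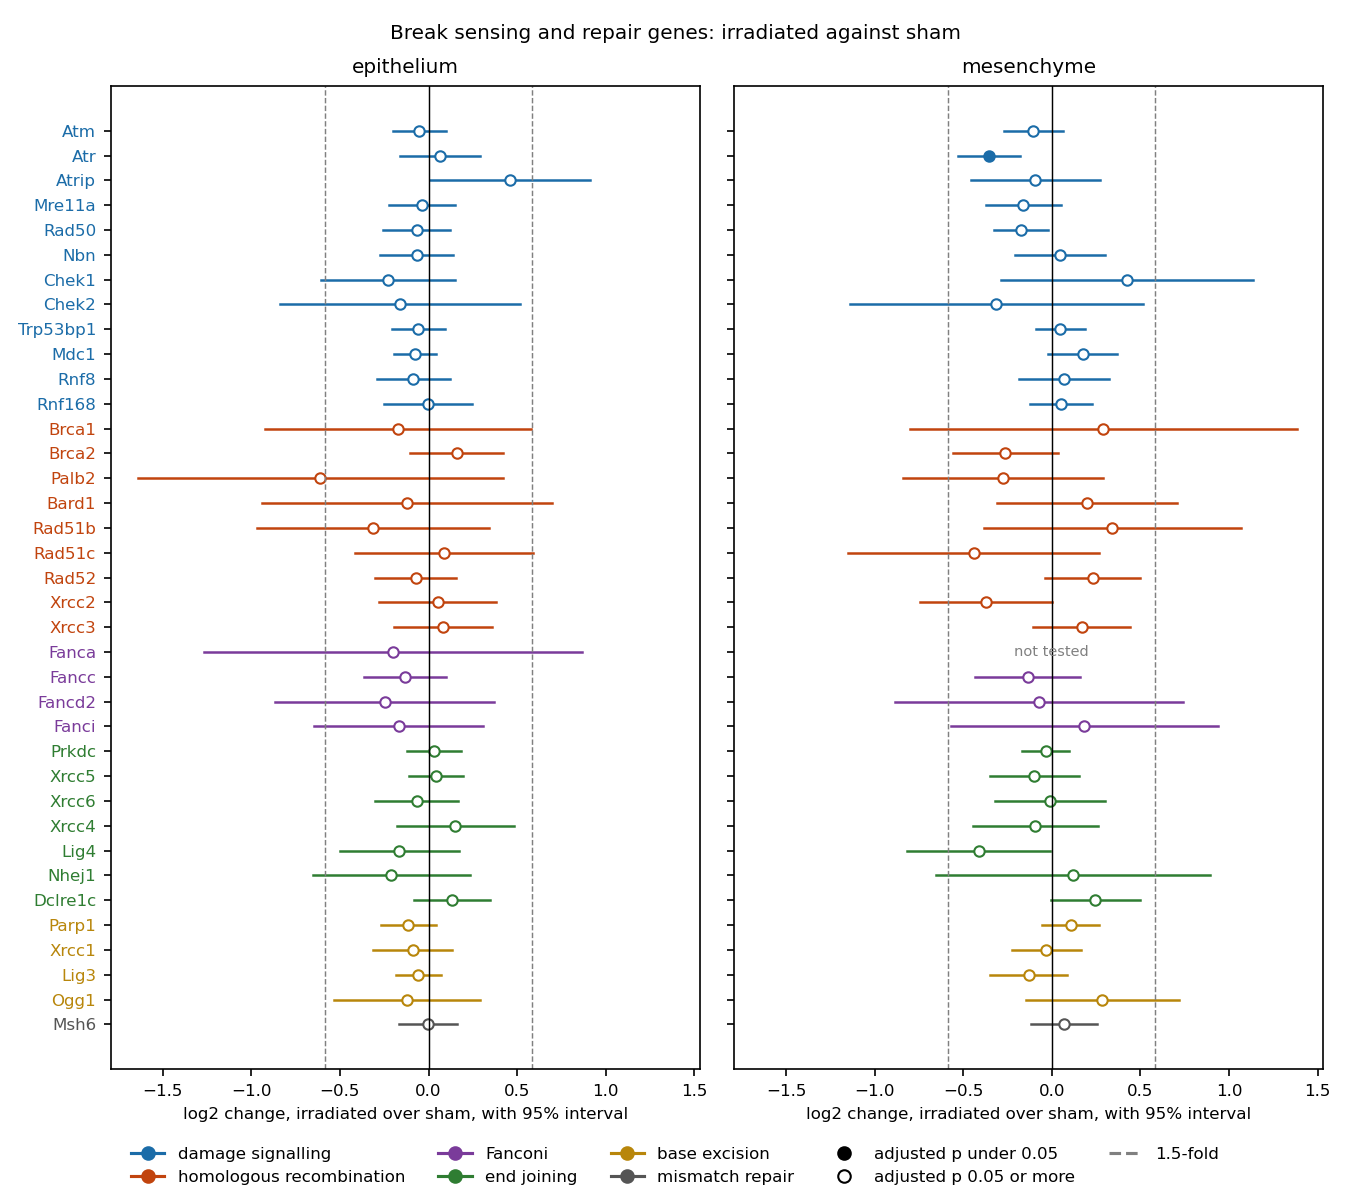
Change of each member in irradiated over sham lungs (log2, points) with its 95% interval (lines), in epithelium (left) and mesenchyme (right); dashed lines mark a 1.5-fold change and filled points an adjusted p under 0.05. Atr in mesenchyme is the one filled point, and Fanca was not tested there.

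Among the damage signalling genes, Atr (chr9:95857597-95951781, plus strand, GRCm38) codes for the kinase that answers stalled forks and single-stranded DNA. In mesenchyme it had 284, 333, 333 and 348 in depleted, 337, 302, 315 and 327 in irradiated and 405, 405, 456 and 374 in sham libraries (normalised counts, here and below). Every depleted and irradiated library lay below every sham library, and the depleted and irradiated libraries overlapped. The change was -0.35 ± 0.08 (SE, adjusted p = 0.0296) in irradiated over sham mesenchyme and -0.34 ± 0.08 (SE, adjusted p = 0.0121) in depleted over sham mesenchyme. In epithelium it had 309.7, 323, 369 and 312 in depleted, 426, 371, 299 and 361 in irradiated and 317, 303, 401 and 371 in sham libraries. The epithelial groups overlapped, and the change in irradiated over sham was 0.063 ± 0.11 (SE, adjusted p = 0.865). An antisense transcript, Gm16794, shares 462 exon bases with Atr, and the strand used in counting is not given in the sources used here, so reads of both cannot be told apart. Gm16794 itself had 19.4 ± 1.58 in irradiated and 28.2 ± 9.13 in sham mesenchyme (SD, n = 4).

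The call of Atr in irradiated over sham mesenchyme depends on single libraries. It ended without irradiated replicate 2 (adjusted p = 0.103), irradiated replicate 3 (0.0576), sham replicate 1 (0.0621) or sham replicate 3 (0.111), and with no filter on low genes (0.0513). Without irradiated replicate 4, 2 members were called, Atr and the annealing factor gene Rad52, which was higher. In depleted over sham mesenchyme the call of Atr ended without sham replicate 3 (0.0506).

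Atm codes for the first kinase activated by double-strand breaks. It had 542, 601, 597 and 548 in depleted, 642, 569.7, 511 and 598 in irradiated and 561, 589, 625 and 626 in sham epithelium. In mesenchyme it had 431, 428, 435 and 446 in depleted, 379.6, 440.4, 481 and 421 in irradiated and 479.7, 477, 481 and 411 in sham libraries. The groups overlapped in both tables, and the changes in irradiated over sham were -0.052 ± 0.07 (SE, adjusted p = 0.821) in epithelium and -0.10 ± 0.08 (SE, adjusted p = 0.489) in mesenchyme. Their 95% intervals were -0.20 to 0.10 and -0.27 to 0.064, inside 1.5-fold. The checkpoint kinase gene Chek2 was low. It had 22.4, 13.98, 24.8 and 10.8 in depleted, 11.7, 16.5, 9.71 and 15.3 in irradiated and 18.5, 9.55, 12.5 and 20.8 in sham epithelium. Mesenchymal values were 7.17, 4.50, 8.70 and 12.1 in depleted, 14.4, 13.7, 4.07 and 9.76 in irradiated and 9.13, 12.4, 14.1 and 13.3 in sham libraries, and the groups overlapped. The changes in irradiated over sham, -0.16 ± 0.32 (SE, adjusted p = 0.891) in epithelium and -0.31 ± 0.39 (SE, adjusted p = 0.695) in mesenchyme, had intervals of -0.84 to 0.52 and -1.14 to 0.51, so a 1.5-fold change was not detectable with these libraries.

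Of the other damage signalling members, the end-binding complex did not pass the test in irradiated over sham lungs of either table. Mre11a had a log2 change of -0.034 in epithelium and -0.16 in mesenchyme, Nbn of -0.068 and 0.047, and Rad50 of -0.067 and -0.17, with adjusted p of 0.177 for Rad50 in mesenchyme. Atrip, the partner of ATR, was the 1 epithelial member with an unadjusted p under 0.05. It had 43.8, 45.8, 74.5 and 38.3 in depleted, 55.8, 66.97, 67.97 and 55.5 in irradiated and 65.4, 42.4, 40.2 and 34.3 in sham epithelium, a change of 0.46 ± 0.22 (SE, adjusted p = 0.34) in irradiated over sham. Atrip shares 1147 exon bases with Trex1 on the same strand, so its count is uncertain.

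In homologous recombination, the scaffold gene Brca1 was low, with single mesenchymal libraries close to the detection limit. It had 10.1, 16.5, 16.9 and 14.4 in depleted, 34.3, 17.3, 11.3 and 10.4 in irradiated and 21.5, 10.6, 27.7 and 18.7 in sham epithelium, and 18.4, 4.50, 12.6 and 9.07 in depleted, 9.28, 11.4, 4.07 and 9.76 in irradiated and 2.03, 5.79, 15.1 and 8.32 in sham mesenchyme. Libraries of 1 group differed more than the groups did, and the intervals of irradiated over sham, -0.93 to 0.58 in epithelium and -0.80 to 1.38 in mesenchyme, reach past 1.5-fold. Xrcc2 was the recombination member with the smallest unadjusted p in irradiated over sham lungs. It had 58.4, 70.2, 41.6 and 52.4 in depleted, 58.8, 50.1, 74.2 and 52.4 in irradiated and 82.2, 67.9, 82.8 and 70.7 in sham mesenchyme. All irradiated libraries except replicate 3 lay below all sham libraries, and the change was -0.37 ± 0.17 (SE, adjusted p = 0.237), which did not pass. In epithelium it had 46.01, 53.4, 53.04 and 46.7 in depleted, 49.9, 41.8, 38.8 and 49.8 in irradiated and 44.9, 38.2, 50.01 and 40.6 in sham libraries, and the change in irradiated over sham was 0.052 ± 0.16 (SE, adjusted p = 0.93). The other 7 recombination members lay between -0.61 (Palb2) and 0.16 (Brca2) in epithelium and between -0.44 (Rad51c) and 0.34 (Rad51b) in mesenchyme, and 0 passed.

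Among the end joining genes, Prkdc, Xrcc5 and Xrcc6 had tighter intervals than Brca1. Prkdc codes for the DNA-PK catalytic subunit. It had 572, 641, 714 and 644 in depleted, 709.5, 655, 579 and 662 in irradiated and 630.3, 631, 635 and 647 in sham epithelium. Among mesenchymal libraries it had 549, 559.7, 621 and 604 in depleted, 609, 621, 597 and 648 in irradiated and 619, 623, 648 and 644 in sham libraries. The groups overlapped in both tables, with changes in irradiated over sham of 0.031 ± 0.07 (SE, adjusted p = 0.904) and -0.034 ± 0.06 (SE, adjusted p = 0.804) and intervals of -0.12 to 0.18 in epithelium and -0.17 to 0.10 in mesenchyme.

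The Ku subunits bind the broken ends for DNA-PK. Xrcc5 (Ku80) had 319, 300.0, 283 and 298 in depleted, 298, 301, 274 and 302 in irradiated and 315, 276, 283 and 269 in sham epithelium, and 118, 129.6, 121 and 129 in depleted, 123, 114, 89.5 and 109.8 in irradiated and 117, 124, 99.9 and 125 in sham mesenchyme. Xrcc6 (Ku70) had 147, 122, 150.1 and 122 in depleted, 154, 138, 134 and 122 in irradiated and 158, 153, 138 and 125 in sham epithelium, and 121, 104, 90.8 and 127 in depleted, 103, 96.7, 135 and 109 in irradiated and 109.5, 93.5, 137 and 107 in sham mesenchyme. Both genes overlapped between all groups of a table. In irradiated over sham the log2 change of Xrcc5 was 0.043 ± 0.07 (SE, adjusted p = 0.865) in epithelium and -0.10 ± 0.12 (SE, adjusted p = 0.683) in mesenchyme, and that of Xrcc6 was -0.068 ± 0.11 (SE, adjusted p = 0.859) and -0.01 ± 0.15 (SE, adjusted p = 0.978), all with intervals inside 1.5-fold. Lig4, the ligase of the pathway, had 36.9, 37.8, 49.3 and 43.3 in depleted, 27.9, 42.1, 41.7 and 32.9 in irradiated and 36.5, 52.96, 51.5 and 52.4 in sham mesenchyme. Its change in irradiated over sham mesenchyme was -0.41 ± 0.19 (SE, adjusted p = 0.225), and its sham replicate 1 lay below the other sham libraries. In epithelium it had 96.5, 82.6, 99.3 and 75.4 in depleted, 119, 77.2, 104 and 80.4 in irradiated and 83.9, 102, 129 and 111 in sham libraries, a change of -0.16 ± 0.16 (SE, adjusted p = 0.725) in irradiated over sham. Xrcc4, Nhej1 and Dclre1c (Artemis) did not pass in either table, with changes of -0.21 (Nhej1) to 0.15 (Xrcc4) in epithelium and -0.092 (Xrcc4) to 0.25 (Dclre1c) in mesenchyme.

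Parp1, of base excision repair, senses single-strand breaks. It had 408, 437, 369 and 392 in depleted, 473, 387, 433 and 404 in irradiated and 482, 441, 462 and 446 in sham epithelium. Mesenchymal values were 313, 289.7, 273 and 274 in depleted, 314, 272, 279 and 282 in irradiated and 265, 262, 281 and 256 in sham libraries. Every depleted epithelial library lay below every sham one, and the irradiated ones overlapped both. The changes were -0.11 ± 0.07 (SE, adjusted p = 0.542) in irradiated over sham and -0.19 ± 0.07 (SE, adjusted p = 0.11) in depleted over sham epithelium, and 0.11 ± 0.08 (SE, adjusted p = 0.462) in irradiated over sham mesenchyme. Xrcc1, Lig3 and the 8-oxoguanine glycosylase gene Ogg1 had log2 changes of -0.12 (Ogg1) to -0.057 (Lig3) in epithelium and of -0.13 (Lig3) to 0.28 (Ogg1) in mesenchyme, and none of the 3 passed. Msh6, the mismatch repair member, had 475, 398, 478 and 398 in depleted, 399, 472, 457 and 435 in irradiated and 438, 428, 428 and 469 in sham epithelium, and 294, 286, 289.9 and 286 in depleted, 277, 267, 271 and 319.6 in irradiated and 237, 269, 309 and 268 in sham mesenchyme. Its groups overlapped, with changes in irradiated over sham of -0.0014 ± 0.08 (SE, adjusted p = 0.996) and 0.07 ± 0.09 (SE, adjusted p = 0.695) and intervals of -0.17 to 0.16 in epithelium and -0.11 to 0.25 in mesenchyme.

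Depleted against irradiated lungs asks what the Ly6G antibody changed on top of the dose. No member passed in either fraction, with 0 of 37 called in epithelium, where 79 of all tested genes (0.475%) were called, and 0 of 36 in mesenchyme, where 448 (2.69%) were called. At an unadjusted p under 0.05 there were 4 members in epithelium (Brca2, Fancc, Rnf8 and Fanci, all lower in depleted lungs) and 3 in mesenchyme (Trp53bp1, Fancc and Xrcc3, all lower in depleted lungs), against 2066 (12.4%) and 2983 (17.9%) of all genes. The median log2 change of the members was -0.034 in epithelium and -0.024 in mesenchyme. edgeR on recovered reads called 0 members in both fractions, and DESeq2 called 0 in epithelium and 1, Trp53bp1, in mesenchyme.

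Depleted against sham lungs carries the dose and the antibody together. The called members were Fanconi and damage signalling genes. In epithelium 3 of 37 fell: the Fanconi genes Fancc and Fanci, and the ubiquitin ligase gene Rnf8, against 1876 called genes (11.3%). In mesenchyme 2 of 36 fell, Atr and Fancc, and 1 rose, the chromatin scaffold gene Mdc1, against 2528 called genes (15.2%). As shares of the tested members, both counts are below those among all genes. This comparison shares its sham libraries with irradiated against sham, and its depleted libraries with depleted against irradiated. The plot of values per library shows these members.

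**Figure D3:**
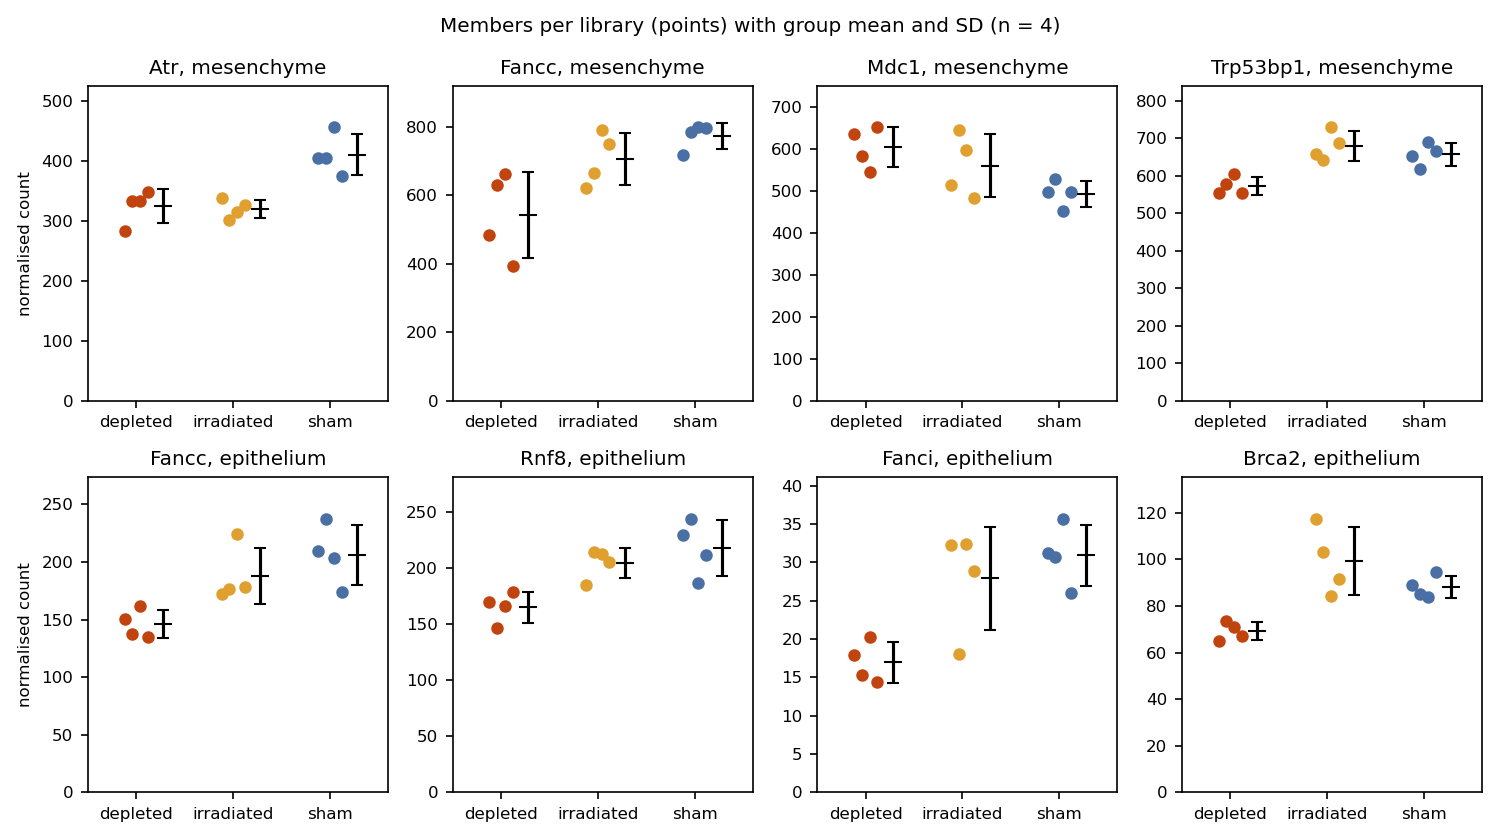
Normalised count per library (points, 4 in each group) with group mean and SD (bars), in depleted, irradiated and sham lungs: Atr, Fancc, Mdc1 and Trp53bp1 in mesenchyme (top), and Fancc, Rnf8, Fanci and Brca2 in epithelium (bottom). Atr sits below sham in both irradiated groups, whereas the group means of Fancc, Rnf8, Fanci and Brca2 are lowest in depleted epithelium. None of these passed in depleted over irradiated epithelium, and Fanci overlapped there. Brca2 was chosen after its values were seen and passed in no comparison.

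Fancc (chr13:63285043-63497278, minus strand, GRCm38) codes for a subunit of the Fanconi core complex, which marks DNA crosslinks for repair, and it was the 1 member called lower in depleted over sham lungs of both fractions. It had 150.4, 137, 161 and 135 in depleted, 172, 176, 224 and 178 in irradiated and 209.8, 238, 204 and 174 in sham epithelium. In mesenchyme it had 483, 629, 661 and 393 in depleted, 622, 665, 789 and 749 in irradiated and 717, 783, 799 and 796 in sham libraries. In epithelium every depleted library lay below every irradiated and sham library. In mesenchyme every depleted library lay below every sham library, while the depleted and irradiated libraries overlapped. The changes in depleted over sham were -0.49 ± 0.11 (SE, adjusted p = 0.00798) in epithelium and -0.54 ± 0.14 (SE, adjusted p = 0.0174) in mesenchyme. In depleted over irradiated they were -0.36 ± 0.11 (SE, adjusted p = 0.167) and -0.41 ± 0.14 (SE, adjusted p = 0.137), and in irradiated over sham -0.13 ± 0.11 (SE, adjusted p = 0.664) and -0.14 ± 0.14 (SE, adjusted p = 0.618). Without depleted replicate 3 the mesenchymal change in depleted over irradiated passed (0.0381), and without depleted replicate 1 (0.0566) or sham replicate 3 (0.0521) that in depleted over sham did not (adjusted p). On the opposite strand Fancc shares 1373 exon bases with Gm16133 and 185 with 2010111I01Rik. The counting strand is not given, so the count of Fancc is uncertain. Gm16133 had 3.31 ± 2.33 in depleted and 4.67 ± 1.98 in sham epithelium (SD, n = 4). In mesenchyme it had 9.38 ± 3.98 in depleted and 19.1 ± 6.16 in sham libraries (SD, n = 4). The partner 2010111I01Rik had 361 ± 29.4 in depleted and 405 ± 9.55 in sham epithelium, and 816 ± 79.1 in depleted and 1114 ± 66.96 in sham mesenchyme (SD, n = 4).

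Fanci (chr7:79391929-79450264, plus strand) codes for a protein that forms the Fanconi clamp on DNA with FANCD2. It had 17.95, 15.3, 20.3 and 14.4 in depleted, 32.3, 18.1, 32.4 and 28.9 in irradiated and 31.2, 30.8, 35.7 and 26.02 in sham epithelium, where every depleted library lay below every sham library and irradiated replicate 2 lay among the depleted ones. The change was -0.83 ± 0.23 (SE, adjusted p = 0.0238) in depleted over sham and -0.66 ± 0.23 (SE, adjusted p = 0.21) in depleted over irradiated epithelium. The call ended without depleted replicate 2 (0.0537), depleted replicate 4 (0.0677), sham replicate 2 (0.0528) or sham replicate 3 (0.0791; adjusted p). Among mesenchymal libraries it had 19.5, 18.9, 7.73 and 21.2 in depleted, 10.3, 21.6, 29.5 and 15.9 in irradiated and 17.2, 18.2, 18.2 and 10.8 in sham libraries, which overlapped. Fanci shares 921 exon bases with Polg on the opposite strand. Polg had 1118 ± 61.98 in depleted and 1054 ± 53.7 in sham epithelium (SD, n = 4). The clamp partner Fancd2 had a log2 change of -0.10 in depleted over sham epithelium and 0.20 in mesenchyme, and Fanca of -0.26 in epithelium. Neither passed.

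Rnf8 (chr17:29614790-29644991, plus strand) codes for the ubiquitin ligase that marks chromatin beside a break and recruits RNF168. It had 169, 146, 166 and 178 in depleted, 185, 214, 213 and 206 in irradiated and 229, 244, 187 and 211 in sham epithelium. All 4 depleted libraries lay below all 4 irradiated and all 4 sham libraries. The change was -0.40 ± 0.10 (SE, adjusted p = 0.0139) in depleted over sham and -0.31 ± 0.10 (SE, adjusted p = 0.174) in depleted over irradiated epithelium. Without sham replicate 2 the adjusted p in depleted over sham was 0.0513. Mesenchymal values were 91.2, 89.98, 109 and 90.7 in depleted, 90.8, 95.6, 117 and 101 in irradiated and 90.3, 93.5, 108 and 92.3 in sham libraries, with overlapping groups and a change of -0.012 ± 0.12 (SE, adjusted p = 0.962) in depleted over sham. Rnf8 shares 1542 exon bases with the readthrough gene Gm28043 on the same strand, so its count is uncertain. Gm28043 had 302 ± 39.6 in depleted and 289 ± 37.8 in sham epithelium (SD, n = 4). Rnf168, the next ligase in the chain, had a log2 change of -0.062 ± 0.12 (SE, adjusted p = 0.8) in depleted over sham epithelium.

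Mdc1 (chr17:35841515-35859670, plus strand) codes for the scaffold that binds phosphorylated histone H2AX. It had 637, 585, 547 and 653 in depleted, 515, 646, 598 and 484 in irradiated and 498, 529, 453 and 498 in sham mesenchyme. The depleted libraries lay above all sham libraries, and the irradiated libraries overlapped both. The change was 0.29 ± 0.09 (SE, adjusted p = 0.0449) in depleted over sham and 0.17 ± 0.09 (SE, adjusted p = 0.303) in irradiated over sham mesenchyme. In epithelium it had 634, 579.6, 592 and 607 in depleted, 636, 574, 610.1 and 579 in irradiated and 634, 641, 619.8 and 629 in sham libraries, and the change in depleted over sham was -0.065 ± 0.06 (SE, adjusted p = 0.515). The mesenchymal call ended without any 1 of 7 libraries, with adjusted p from 0.0508 (irradiated replicate 3) to 0.138 (sham replicate 3). The other 5 libraries were depleted replicates 1, 2 and 4 and sham replicates 1 and 4.

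Trp53bp1 codes for 53BP1, which favours end joining over resection. In mesenchyme it had 555, 579, 605 and 554 in depleted, 658, 642, 730.3 and 689 in irradiated and 652, 618, 692 and 667 in sham libraries. Every depleted library lay below every irradiated and every sham library. The change was -0.24 ± 0.06 (SE, adjusted p = 0.0584) in depleted over irradiated and -0.20 ± 0.06 (SE, adjusted p = 0.0533) in depleted over sham mesenchyme, neither past the threshold. In depleted over irradiated it passed with DESeq2 (adjusted p = 0.025), on genes with a mean of at least 50 (0.043), with library weights (0.0407) and without depleted replicate 3 (0.0393). It did not pass in 21 of 25 settings, with adjusted p up to 0.162. In depleted over sham it passed in 6 of 25 settings, with adjusted p from 0.0322 (library weights) to 0.0487 (edgeR). The others that passed were DESeq2, a mean of at least 50, and leaving out depleted replicate 3 or sham replicate 2. In the 19 that did not pass, adjusted p reached 0.71, and the change was as small as -0.12. In epithelium it had 838, 811, 866 and 681 in depleted, 738, 763, 802 and 814 in irradiated and 829, 772, 848 and 792 in sham libraries. The epithelial groups overlapped, with 0.031 ± 0.07 (SE, adjusted p = 0.912) in depleted over irradiated. Trp53bp1 shares 2130 exon bases with Tubgcp4 on the opposite strand, and Tubgcp4 had 286 ± 32.7 in depleted and 261 ± 21.2 in irradiated mesenchyme (SD, n = 4).

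Brca2, a mediator of homologous recombination, was chosen after its values were seen. It had 65.1, 73.7, 71.1 and 67.00 in depleted, 117, 103, 84.2 and 91.6 in irradiated and 88.8, 84.9, 83.95 and 94.7 in sham epithelium. All 4 depleted libraries lay below all 8 others, and the change was -0.50 ± 0.12 (SE, adjusted p = 0.0782) in depleted over irradiated and -0.34 ± 0.12 (SE, adjusted p = 0.0854) in depleted over sham epithelium. Among mesenchymal libraries it had 119.9, 112, 134 and 94.7 in depleted, 96.96, 118, 93.6 and 116 in irradiated and 119, 141, 147 and 106 in sham libraries. The mesenchymal groups overlapped, with 0.11 ± 0.14 (SE, adjusted p = 0.723) in depleted over irradiated.

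Whether the fractions responded differently was tested in 1 fit of all 24 libraries on 15092 genes. The difference in the irradiation response, epithelium minus mesenchyme, was called for 0 of 36 members and for 95 genes (0.629%). The difference in the depletion response was called for 0 of 36 members and for 90 genes (0.596%). At an unadjusted p under 0.05 there were 4 members for irradiation and 2 for depletion, against 2012 (13.3%) and 1701 (11.3%) of all genes. edgeR and DESeq2 on recovered reads called 0 members in both. For Atr the irradiation response differed by 0.42 ± 0.14 (SE, adjusted p = 0.166). For Brca2 the depletion response differed by -0.62 ± 0.18 (SE, adjusted p = 0.143), and for Trp53bp1 by 0.28 ± 0.09 (SE, adjusted p = 0.223). The fall of Atr is therefore not shown to differ between the fractions.

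Another 7 lists hold 89 other genes of repair and damage signalling, of which 85 were tested in epithelium and 83 in mesenchyme. In irradiated over sham epithelium 3 rose and 0 fell. They were Polk and Rev1, translesion polymerases that copy past damaged bases, and Wee1, the kinase that holds CDK1 inactive. In irradiated over sham mesenchyme Polk rose and 0 fell. In depleted over irradiated lungs 0 of these genes passed in either fraction, with 3.14% and 0.475% of all genes called in the epithelial comparisons and 3.8% and 2.69% in the mesenchymal ones.

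Polk averaged 347 ± 41.5 in depleted, 306 ± 46.4 in irradiated and 158 ± 8.18 in sham epithelium (SD, n = 4 each). In mesenchyme it averaged 171 ± 14.4 in depleted, 187 ± 25.4 in irradiated and 104 ± 6.26 in sham libraries (SD, n = 4 each). Irradiated and sham libraries did not overlap in either table, with changes of 0.94 ± 0.11 (SE, adjusted p = 3.70e-05) and 0.83 ± 0.11 (SE, adjusted p = 5.34e-04). Rev1 averaged 508 ± 41.7 in depleted, 507 ± 42.3 in irradiated and 298 ± 28.2 in sham epithelium, a change of 0.76 ± 0.08 (SE, adjusted p = 2.74e-05) in irradiated over sham. In mesenchyme the log2 change of Rev1 was 0.13 ± 0.08 (SE, adjusted p = 0.391), and the difference between the fractions was 0.63 ± 0.12 (SE, adjusted p = 0.00952). Wee1 rose by 0.38 ± 0.08 (SE, adjusted p = 0.0131) in irradiated over sham epithelium, and without irradiated replicate 2 its adjusted p was 0.0572.

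In depleted over sham epithelium 5 of the 85 rose and 1 fell, where 11.3% of all genes were called. Beside Polk, Rev1 and Wee1, the excision repair nuclease gene Ercc5 rose by 0.41 (log2, adjusted p = 0.00347), Ppm1d, the phosphatase that switches off the ATM pathway, rose by 0.35 (adjusted p = 0.0221), and the damage recognition gene Rad23b fell, with a log2 change of -0.28 (adjusted p = 0.0257). In depleted over sham mesenchyme 2 of the 83 rose, Polk and Ppm1d, and 3 fell, where 15.2% of all genes were called. In both fractions the share called in these lists was below that of all genes. The 3 were Rev3l, the catalytic subunit of polymerase zeta (-0.43, adjusted p = 0.00467), Rif1, an effector of 53BP1 (-0.35, adjusted p = 0.0199), and the Fanconi core gene Fancb (-1.03, adjusted p = 0.0416). The calls of Ppm1d (both fractions), Rad23b, Rif1 and Fancb each ended when any 1 of at least 4 libraries was left out.

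Genes activated by p53 give the scale of the response in the same libraries. All 10 of a list of p53 targets rose in irradiated over sham lungs of both fractions, with medians of 1.74 in epithelium and 1.02 in mesenchyme (log2). Of all genes, 3.14% and 3.8% were called in these comparisons. The list was chosen with earlier results of these data known, so its rise is no independent test. Cdkn1a, the cell cycle inhibitor p21, averaged 3972 ± 1053 in depleted, 3321 ± 675 in irradiated and 519.7 ± 45.1 in sham epithelium (SD, n = 4 each). The smallest of the 10 log2 changes was 0.64 (Mdm2) in epithelium and 0.78 (Phlda3) in mesenchyme. The largest upward estimate among the tested members was 0.46 (Atrip, not called) in epithelium and 0.42 (Chek1, not called) in mesenchyme. Fanca, near the floor in mesenchyme, was not among those tested there. The plot of the lists sets these side by side.

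**Figure D4:**
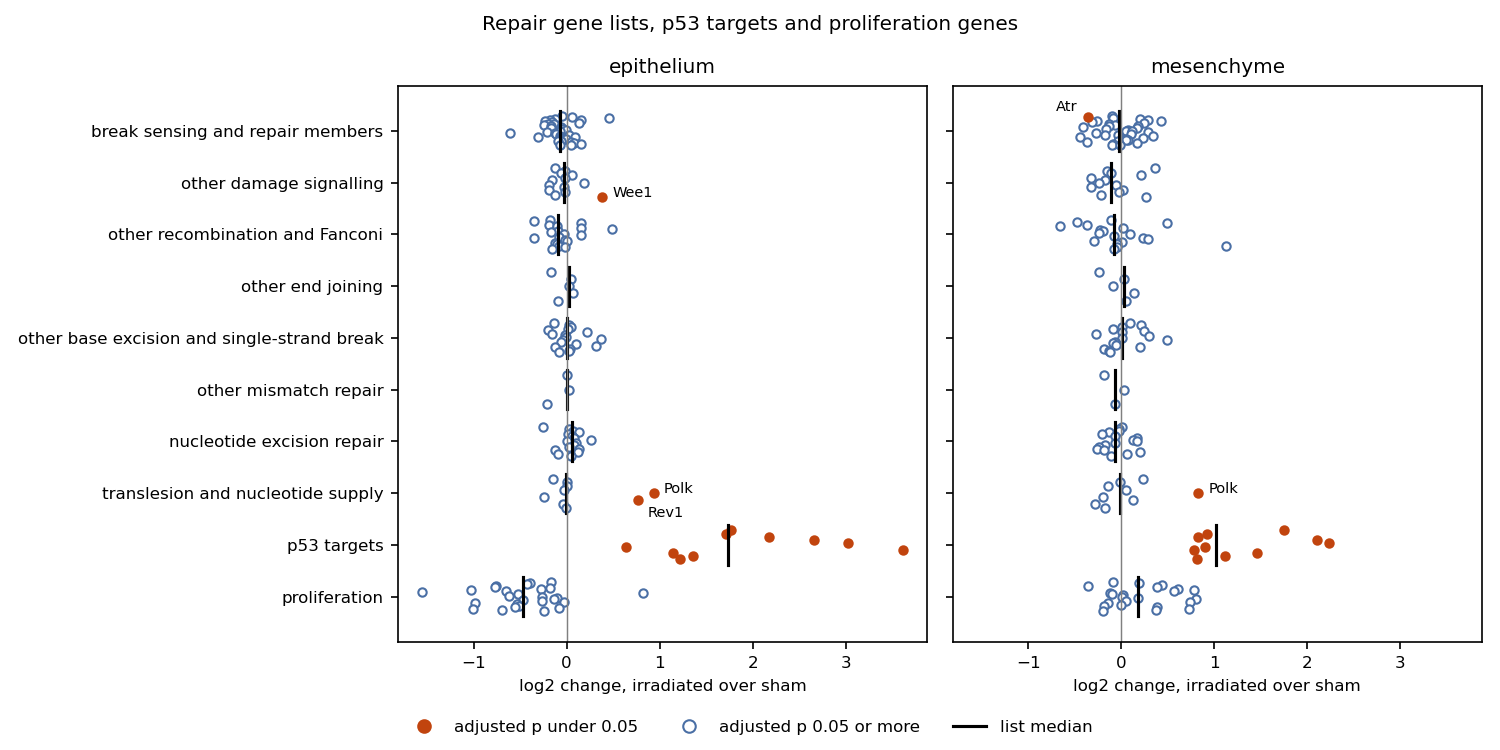
Change in irradiated over sham lungs (log2) of the members, 7 other repair lists, p53 targets and proliferation genes, in epithelium (left) and mesenchyme (right); filled points have an adjusted p under 0.05 and black bars are list medians. The 10 p53 targets all lie right of the tested members. Polk in both fractions and Rev1 in epithelium have the largest changes among the called genes of the other repair lists.

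Other features of the libraries moved with the groups. Recovered reads per epithelial library were 8159062 to 9267632 in depleted, 10884703 to 13373329 in irradiated and 9776113 to 11710964 in sham lungs. In mesenchyme they were 8960347 to 9932700 in depleted, 7366672 to 8989716 in irradiated and 8951233 to 11408083 in sham lungs. Proliferation genes (30, all detected) summed to 1357 to 1598 in depleted, 1386 to 2154 in irradiated and 1719 to 2174 in sham epithelium, and to 1301 to 1463 in depleted, 1155 to 1349 in irradiated and 1018 to 1271 in sham mesenchyme. Of the 27 tested, 5 fell in depleted over sham epithelium (Bub1, Ccna2, Cdc6, Cenpf and Mcm5), where 11.3% of all genes were called. Of the 23 tested, 5 rose in depleted over sham mesenchyme (Gins2, Mcm6, Mki67, Tk1 and Top2a), where 15.2% of all genes were called. Irradiated over sham called 0 of them in either fraction.

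Markers of other cell types were present in every group despite the gate. The 15 leukocyte markers, all detected in each group, summed to 3201 to 4021 in depleted, 3712 to 4754 in irradiated and 3583 to 3877 in sham epithelium, and to 936 to 2112 in depleted, 1286 to 2862 in irradiated and 473 to 1332 in sham mesenchyme. Although the epithelial sums overlapped, the median log2 change of the 13 tested leukocyte markers in epithelium was 1.03 in depleted over sham (3 called higher) and 1.28 in irradiated over sham (3 called higher). For 5 tested macrophage markers in epithelium these medians were 1.56 (3 called higher) and 1.39 (1 called higher). Neutrophil markers (8) summed to 133 to 428 in depleted, 125 to 457 in irradiated and 12.5 to 56.2 in sham epithelium, where Ly6g was at 0 in sham, and to 218 to 611 in depleted, 344 to 709 in irradiated and 84.8 to 275 in sham mesenchyme. Ly6g was at most 5.08 in any library, so its level gives no check of the depletion. The 10 endothelial markers summed to 2182 to 3048 in depleted, 2321 to 3723 in irradiated and 1599 to 2138 in sham epithelium, where 4 were called higher in irradiated over sham, and to 2022 to 3692 in depleted, 2781 to 4723 in irradiated and 1197 to 2846 in sham mesenchyme. Markers of the opposite fraction moved with the groups too. In epithelium fibroblast and mural markers summed to 8799 to 10351 in depleted, 7476 to 8262 in irradiated and 6240 to 6892 in sham. These ranges did not overlap. In mesenchyme pan-epithelial markers summed to 326 to 471 in depleted, 266 to 450 in irradiated and 133 to 267 in sham. The part of all these cells in the results of the members was not tested beyond the covariate fits that follow. The defining markers of each fraction were high: pan-epithelial markers (8 of 8 detected) summed to 15938 to 17041 in depleted, 15657 to 16609 in irradiated and 17470 to 18538 in sham epithelium, and fibroblast and mural markers (10 of 10) to 163559 to 230456 in depleted, 134408 to 227049 in irradiated and 156210 to 197703 in sham mesenchyme.

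With the mean level of the leukocyte markers as a covariate, the log2 change of Atr was -0.32 in irradiated over sham mesenchyme (adjusted p = 0.514) and that of Fanci -0.63 in depleted over sham epithelium (adjusted p = 0.322). With the mean level of the proliferation genes, that of Fanci was -0.69 (adjusted p = 0.339) and that of Fancc in depleted over sham mesenchyme -0.53 (adjusted p = 0.356). Outside the members, Polk in irradiated over sham mesenchyme was at 0.73 with the leukocyte covariate (adjusted p = 0.0579). The difference of Rev1 between the fractions was 0.46 with the leukocyte covariate (adjusted p = 0.86) and 0.52 with the proliferation covariate (adjusted p = 0.337). Both covariates moved with the groups, so their part and that of the groups cannot be told apart.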

How the data were processed

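RNA depleted of ribosomal RNA was sequenced from 24 libraries, 4 in each of 6 groups. Per the submitters' processing notes, cutadapt 1.5, STAR 2.2.2a, SAMtools 1.8, RSEM 1.3.0 and DESeq2 were used with GRCm38, and the annotation release and counting strand are not given in the sources used here. The deposited values are a signal, gene counts divided by a size factor by the authors, in 1 table per fraction with its own scale. Of 48795 identifiers, 48349 had a GENCODE M21 symbol. All values (100%) came out as whole reads within 0.001 when divided by the step of their library. Depth was 8159062 to 13373329 reads per epithelial library and 7366672 to 11408083 per mesenchymal library, and a count of 0 allows 3 reads, or 2.36 to 3.81 and 2.48 to 3.66 normalised counts. Floors cover counting error only.

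Genes with at least 10 in at least 4 of 12 libraries were tested on log2(value + 1) with limma 3.58.1 (trend, robust, R 4.3.3), all 3 groups of a table in 1 fit. Changes of low genes are understated on this scale. P-values were adjusted by Benjamini-Hochberg over all tested genes, with calls at an adjusted p under 0.05. Alternatives included edgeR 4.0.16 and DESeq2 1.42.0 on recovered reads. The fits were tested on simulated data. No column lacked a sample. Full values are given for each called member and, for a role without calls, for the member with the smallest unadjusted p in irradiated against sham, with further members set by role. The members and lists were chosen with earlier results of these data known. The series' design text gives 4 mice per group, and the labels do not say whether equal numbers in the 2 fractions are the same mouse. Levels per kb use the union of exons in GENCODE M21. Chi-square per degree of freedom between libraries of a group was 2.33 to 14.6, so none was a repeat of another.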

Additional observations from a re-analysis of the deposited data

Results flagged for a closer look

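Of 108 groups of 4 libraries of named members and of Polk, 7 held a library far from the other 3. Chance marks about 1 in 20 such groups. Atm in mesenchyme was lowest in sham replicate 4, at 410.8, against 477 to 481 in the other sham libraries. Fancc in epithelium was highest in irradiated replicate 3, at 224, against 172 to 178 in the other irradiated libraries. Fanci in mesenchyme was lowest in depleted replicate 3, at 7.73 (others 18.9 to 21.2), and in sham replicate 4, at 10.8 (others 17.2 to 18.2). Lig4 in mesenchyme was lowest in sham replicate 1, at 36.5, against 51.5 to 52.96. Rnf8 in mesenchyme was highest in depleted replicate 3, at 109, against 90.0 to 91.2. Xrcc5 in epithelium was lowest in irradiated replicate 3, at 274, against 298 to 302. The value of Rev1, outside the members, differed between the fractions. Its log2 change in irradiated over sham was 0.63 higher in epithelium than in mesenchyme (limma, adjusted p = 0.00952). That call ended with the leukocyte covariate (adjusted p = 0.86) and with the proliferation covariate (adjusted p = 0.337).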

How the results depend on the processing

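The count of called members was recomputed for 8 comparisons. With the leukocyte covariate it was 0 in depleted over sham epithelium, 0 in irradiated over sham mesenchyme and 1 in depleted over sham mesenchyme, and with the proliferation covariate 0 in both mesenchymal comparisons with sham. Both covariates moved with the groups, so the cause was not tested. Without a filter on low genes it was 0 in irradiated over sham mesenchyme. In depleted over irradiated mesenchyme it was 1 with a mean of at least 50, with DESeq2 and with library weights. TMM factors, other pseudocounts, 2 groups alone and removal of the length trend moved no count of members by over 1.5 times. Leaving out 1 library gave 1 to 4 members in depleted over sham epithelium, 0 to 2 in irradiated over sham mesenchyme, 0 to 2 in depleted over irradiated mesenchyme, 0 to 5 in depleted over sham mesenchyme, and 0 to 0 in the other 4 comparisons. The 1 came without epithelial sham replicate 2, the 5 without mesenchymal sham replicate 2 and the 0 of that comparison without sham replicate 3. Rad51b, Palb2, Mre11a, Xrcc2 and Rad52 were called in 1 such setting each. No called result turned its direction. Estimates that did not pass could change sign, as for Brca1 in irradiated over sham epithelium (-0.51 to 0.51, -0.17 as reported).

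Counts over all genes moved more. In irradiated over sham, 522 genes in epithelium became 558 with edgeR, 816 with DESeq2, 964 with library weights, 47 with the leukocyte and 138 with the proliferation covariate, and 631 in mesenchyme became 582 with edgeR, 1081 with DESeq2, 67 with the leukocyte and 81 with the proliferation covariate. In depleted over irradiated, edgeR gave 92 (epithelium, 79 by limma) and 424 (mesenchyme, 448), and DESeq2 292 and 799. With 2 groups alone these were 32 and 291. In depleted over sham, edgeR gave 1792 and 2559, the leukocyte covariate 372 and 1594, and the proliferation covariate 307 and 337. For the differences between fractions edgeR gave 155 and 96, and DESeq2 429 and 177. Leaving out 1 library gave 220 to 654 and 182 to 1071 genes in irradiated over sham, 36 to 197 and 175 to 799 in depleted over irradiated, 1187 to 1945 and 1571 to 2720 in depleted over sham (epithelium, then mesenchyme), and 48 to 334 (irradiation) and 39 to 141 (depletion) for the differences between fractions.

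The deviations of libraries with equal replicate numbers correlated at -0.078 to 0.182 inside a table. These were over 0.1 in 6 of 24 pairs, all of replicate 2. Between the tables the correlation was -0.0367 to 0.255 (over 0.1 in 7 of 12). Pairs of unequal numbers were not computed, so these values cannot decide whether equal numbers pair the libraries. With the replicate block, members called were 0 in irradiated over sham epithelium, 3 in depleted over sham epithelium, 1 in irradiated over sham mesenchyme and 2 in depleted over sham mesenchyme, where the call of Mdc1 ended (adjusted p = 0.0534). Genes called were then 1048 in irradiated over sham mesenchyme, against 631 without the block. For the difference in irradiation response the block instead treated equal numbers of a group in both fractions as the same mouse, which the labels do not state. Genes called there were 218, against 95 without that block, and 0 members were called either way. For low members such as Brca1 and Chek2 a 1.5-fold change was not detectable, and counting error and spread between libraries were not separated.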
